A study of Mus musculus with 4 samples.

Results

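SOX2, a DNA-binding factor of the SOX family that is made by neural stem cells and by astrocytes, was mapped by chromatin immunoprecipitation and sequencing (ChIP-seq) at 36 genes of the cell cycle and DNA replication. The 36 genes were taken from 21631 protein-coding genes by name, for their roles in the cycle. The rule uses no measured value, but the list was chosen with earlier results of these data known. All of them are in the RefSeq table that was used. A peak counted for a gene when its centre lay inside the gene span or within 50 kb of it and no other protein-coding gene was nearer. Peaks within 1 kb of either end of the gene were kept apart from the rest.

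The material was whole cortex of 2-month-old male wild-type C57BL/6 mice, crosslinked in 2 steps and sheared. There were 3 immunoprecipitated (IP) libraries made with a rabbit antibody to SOX2, and 1 input library made with no antibody. No group carries a deletion, an injury or a treatment. A label field shared by all 4 samples nevertheless names SOX2 as a transduced factor, although the extraction protocol speaks of wild-type tissue and of no transduction. Nothing in the labels says that the IP libraries came from different mice, so their spread may be technical.

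The cell cycle is driven by cyclins and their kinases, the CDKs. D-type cyclins with CDK4 or CDK6 act on the retinoblastoma family of pocket proteins, which hold E2F factors in check. E2F factors switch on genes for DNA replication, such as those of the MCM helicase, and CDK1 with the A-type and B-type cyclins then drives mitosis. Most cells of the adult cortex, neurons above all, no longer divide, and neural stem cells and some glial progenitors are the exceptions. Many promoters of mitotic genes hold CCAAT boxes, the word bound by the factor NF-Y, and a word called CHR that is bound by complexes of MuvB proteins.

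The sequences of 6 start-site regions are printed here, because they show the DNA just before the gene start that the regions covered. They are those of Plk1, Mcm3, Top2a, Cdk1 and Cdc20, which range from the strongest to the middle, and that of Bub1, which is weak and holds a SOX word. The regions of Mcm7 and Ccnd3, between Cdk1 and Cdc20 in strength, are not printed, nor is the weaker one of Cdkn1b. Before the start, the Mcm7 and Ccnd3 regions held no CCAAT box. All 6 printed sequences hold one, so they do not stand for every start-site region. The stretches are the parts of the regions before the start site and within the RefSeq window of 250 bases before it, which leaves out the outermost 8 bp of the Bub1 region. They are Top2a at chr11:99024240-99024402 (minus strand), Mcm3 at chr1:20820313-20820479 (minus strand), Plk1 at chr7:122159302-122159434 (plus strand), Cdk1 at chr10:69352944-69353118 (minus strand), Cdc20 at chr4:118437344-118437499 (minus strand), Bub1 at chr2:127831898-127832109 (minus strand), from RefSeq (assembly GRCm38.p6, numbered like mm10). Capitals mark a CCAAT box (CCAAT, or ATTGG on the other strand) and, in Bub1, a SOX word (CTTTGT).
Top2a: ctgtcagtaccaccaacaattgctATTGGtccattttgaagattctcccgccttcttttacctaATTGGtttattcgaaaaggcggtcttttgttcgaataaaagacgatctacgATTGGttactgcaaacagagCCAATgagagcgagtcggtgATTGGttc
Mcm3: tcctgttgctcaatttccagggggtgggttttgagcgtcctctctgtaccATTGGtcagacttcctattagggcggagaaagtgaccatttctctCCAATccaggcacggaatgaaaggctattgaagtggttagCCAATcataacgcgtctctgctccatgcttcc
Plk1: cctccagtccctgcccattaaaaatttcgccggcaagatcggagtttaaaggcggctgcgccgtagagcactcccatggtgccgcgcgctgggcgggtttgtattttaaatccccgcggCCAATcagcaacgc
Cdk1: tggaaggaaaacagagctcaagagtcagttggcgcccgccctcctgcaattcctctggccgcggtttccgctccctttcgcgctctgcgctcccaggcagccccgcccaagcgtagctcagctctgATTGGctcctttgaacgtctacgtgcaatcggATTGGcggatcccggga
Cdc20: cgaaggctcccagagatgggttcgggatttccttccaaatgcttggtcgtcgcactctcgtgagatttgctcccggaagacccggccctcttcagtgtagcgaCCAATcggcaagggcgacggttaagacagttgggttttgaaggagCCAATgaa
Bub1: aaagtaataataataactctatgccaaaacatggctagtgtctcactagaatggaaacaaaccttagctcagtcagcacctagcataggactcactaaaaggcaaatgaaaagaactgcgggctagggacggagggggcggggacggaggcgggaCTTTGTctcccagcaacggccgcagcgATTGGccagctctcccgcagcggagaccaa

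Top2a had 5 CCAAT boxes in its stretch and Mcm3 had 3, and these genes carried regions of 17.0 and 17.2 normalized tags (means of 3 libraries). Plk1, with 17.9, had 1 box. Cdk1 and Cdc20 had 2 each, and Bub1 had 1 box beside its SOX word. A word of this kind is a match of letters and does not show which factor was bound.

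A tag is a sequenced read placed on the genome, and normalized tags, the authors' value for the strength of a peak, are scaled to 10000000 tags a library. The libraries held 36330529, 32492927 and 41875666 tags and 17730, 17628 and 15891 peaks. The weakest peaks in the files of IP libraries 1, 2 and 3 held 3.30, 3.08 and 2.87 normalized tags, and the weakest peaks of the 36 genes 3.85, 4.00 and 3.58. A region is called reproducible here where peaks of all 3 libraries were joined by overlaps of at least 1 bp. There were 9334 such regions, and 7753 of them went to 4873 genes. Of markers used as a check on the tissue, 12 of 12 astrocyte genes had a reproducible region, against 4 of 8 neuron, 1 of 6 oligodendrocyte, 1 of 5 microglia, 2 of 4 endothelial and 2 of 6 hepatocyte genes. The share over all protein-coding genes was 22.5%. These lists are short, and the hepatocyte genes, of another tissue, stood at 33.3%.

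Of the 36 genes, 15 (41.7%) carried a reproducible region, where 22.5% of all protein-coding genes did. These were Mcm3, Mcm7, Cdc6, Top2a, Ccnd2, Ccnd3, Ccna2, Cdk1, Cdkn1b, Rb1, E2f1, E2f3, Plk1, Cdc20 and Bub1. At a gene end the counts were 11 of 36 (30.6%) against 8.16% of all genes. With only peaks of at least 8-fold over the input, 9 of the 36 had a region against 15.0% of all genes, and with only the stronger 0.5 of peaks there were 9 of 36 against 15.2%. No test of the list was made, since its members were chosen with earlier results of these data known.

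In single libraries, 22 of the 36 genes had at least 1 peak in IP library 1, 21 in library 2 and 23 in library 3. The shares over all protein-coding genes were 34.8%, 35.1% and 32.9%. At least 1 library gave a peak to 26 members (44.9% of all genes) and at least 1 gave a peak within 1 kb of a gene end to 21 members (22.8% of all genes). The tissue is a mixture of cells, so few occupied cells and weak occupancy in many cells cannot be told apart.

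**Figure D1:**
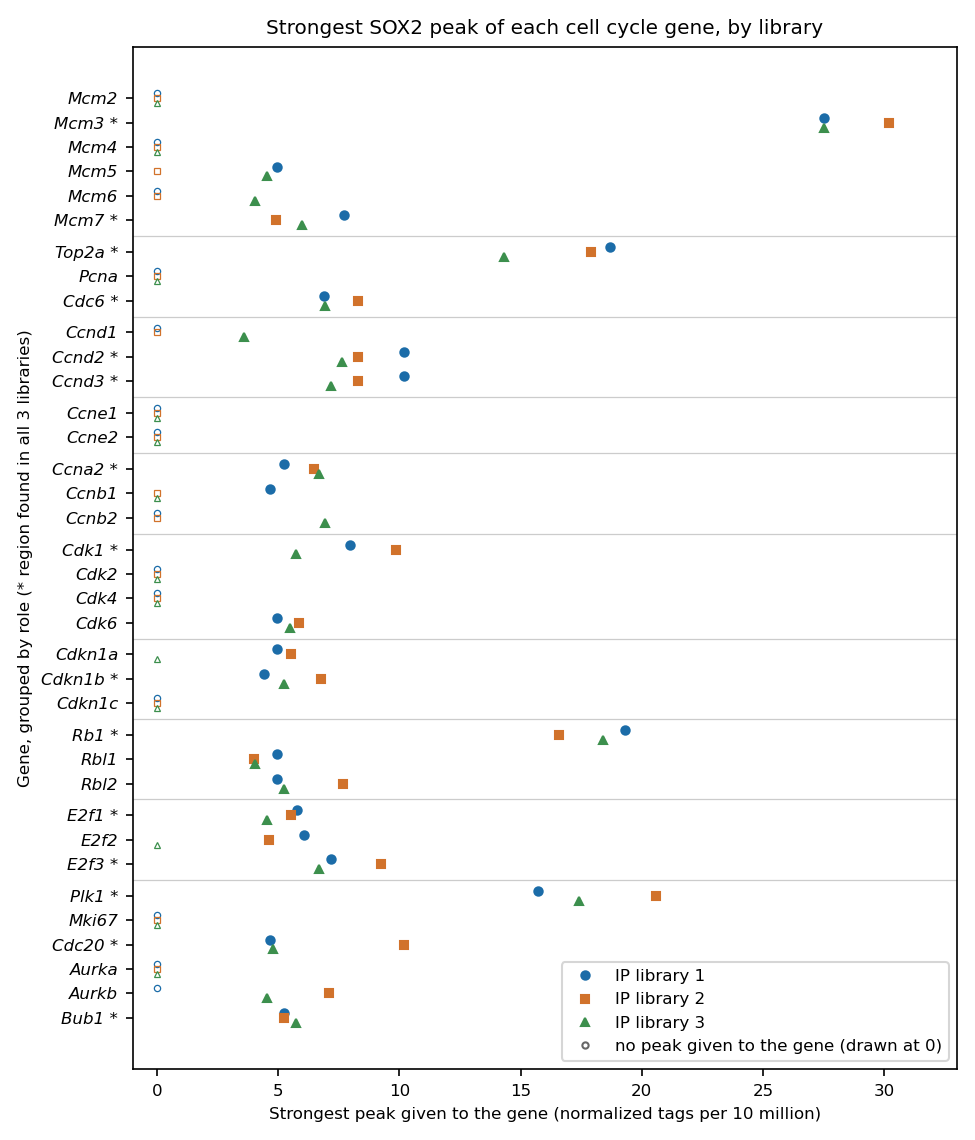
Strongest peak given to each of the 36 genes in normalized tags per 10000000 (horizontal axis) for IP library 1 (circles), 2 (squares) and 3 (triangles), with genes in rows by role and open marks at 0 where a library gave the gene no peak. Mcm3, Rb1, Plk1 and Top2a lie to the right of the other genes in all 3 libraries, and 10 genes have open marks only.

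The 15 genes held 20 reproducible regions, 11 at gene ends, 6 inside genes and 3 outside. Gene ends thus made up 55.0% of the members' regions, where they made up 23.3% of all 7753 assigned regions. The median strength of the members' regions was 7.61 normalized tags, close to the 7.58 of all assigned regions. The members are of about usual size, with a median span of 14.5 kb against 17.3 kb over all protein-coding genes, and a median of 35.5 kb against 44.0 kb of sequence to which no other such gene is nearer.

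Among the 6 subunits of the MCM helicase, which opens DNA at replication origins, Mcm3 and Mcm7 had reproducible regions. Mcm3 had 3 of them and the strongest region of all 36 genes. This one lay 25.5 kb upstream of the start, at chr1:20845737-20845957, and 44.7 kb from the next gene, Paqr8. It held 27.5, 30.2 and 27.5 normalized tags in IP libraries 1, 2 and 3, or 28.4 ± 1.56 (SD, n = 3), and was stronger than 99.3% of all reproducible regions. The 3 libraries lay close together here, and the input was at its floor of 0.5 tags, so the 181-fold to 199-fold enrichment rests on that floor.

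The start of Mcm3 carried another region, at chr1:20820264-20820479 and centred 59.5 bp before the start site. Its values were 20.6, 19.7 and 11.2 normalized tags (17.2 ± 5.19, SD, n = 3), and IP library 3 was the low one. The counting intervals were 16.2 to 25.9, 15.2 to 25.2 and 8.25 to 14.9 (exact Poisson, 95%), so that of library 3 lay below both others. The exact multinomial test of the tags in the 3 libraries gave p = 0.0415 and an adjusted p of 0.929 over all 9334 regions. Another, 3.80 kb upstream, was weaker, with 9.63, 10.8 and 5.97. Libraries 2 and 3 alone gave a region 1.09 kb past the far end of the gene, with 6.16 and 6.21.

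Mcm7 had 1 reproducible region at the end of its span, at chr5:138172020-138172191, with 7.71, 8.31 and 5.97 normalized tags (7.33 ± 1.22, SD, n = 3). The same region lay inside Ap4m1, whose end is also within 1 kb, so it cannot be given to one of the pair alone. For that reason the single peak of library 2 there counted for Ap4m1 and is absent from the plot of strongest peaks. A further region 1.03 kb inside Mcm7 was found in libraries 1 and 2 only, with 6.88 and 4.92. Mcm5 had a start-site region in libraries 1 and 3 only, with 4.95 and 4.54, and Mcm6 a start-site peak in library 3 only, with 4.06. Mcm2 and Mcm4 were given no peak in any library.

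Cdc6, which loads the MCM helicase onto origins, had its reproducible region 1.36 kb beyond the far end of the gene, at chr11:98925192-98925412, and 2.50 kb from Rara. It held 6.88, 8.31 and 6.93 normalized tags (7.37 ± 0.812, SD, n = 3), with little spread. Top2a, the topoisomerase that untangles chromosomes before mitosis, had a strong region centred 132 bp before its start, at chr11:99024240-99024402. The values were 18.7, 17.9 and 14.3 (17.0 ± 2.34, SD, n = 3), with library 3 again lowest. It stood 10.3-fold, 11.8-fold and 6.74-fold over the input, which held 6.0, 4.9 and 7.0 tags there. Pcna, the sliding clamp of the DNA polymerases and a common marker of dividing cells, was given no peak.

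Among cyclins, the D-type genes Ccnd2 and Ccnd3 carried most of the regions, and mainly inside the gene. Ccnd2 had 2, at chr6:127134063-127134247 with 10.2, 8.31 and 5.73 normalized tags and 4.31 kb from a gene end with 9.63, 6.77 and 7.64. Ccnd3 had 3 within 6.08 kb of its first start. The one at the start site, chr17:47505041-47505215, held 8.26, 6.46 and 6.69 (7.14 ± 0.980, SD, n = 3). That at 3.10 kb into the gene, chr17:47508054-47508245, held 10.2, 8.31 and 7.16, and that at 6.08 kb held 6.88, 5.54 and 5.25. Library 1 was highest in all 5 of these regions. Ccnd1, the remaining D-type cyclin, had 1 weak peak in library 3 only, 21.4 kb outside the gene, with 3.58.

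Neither E-type cyclin, which acts with CDK2 at the entry into S phase, was given a peak in any library. Ccna2 had 1 region, 0.946 kb inside a gene end, at chr3:36571999-36572185 with 5.23, 6.46 and 6.69 normalized tags (6.13 ± 0.785, SD, n = 3). Of the 20 regions it lies closest to the 1 kb limit for gene ends from within, and that of Cdc6 closest from outside. The B-type cyclin genes had start-site peaks in 1 library each, Ccnb1 in library 1 with 4.68 and Ccnb2 in library 3 with 6.93.

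Cdk1, the mitotic kinase, had a reproducible region centred 119 bp before its start, at chr10:69352944-69353118. It held 7.98, 9.85 and 5.73 normalized tags (7.85 ± 2.06, SD, n = 3), with library 3 lowest. Libraries 1 and 2 gave Cdk1 a further region 21.0 kb upstream, with 4.68 and 4.00. Cdk6, a kinase partner of the D-type cyclins, had 2 regions deep inside its 190.0 kb span, each in a different pair of libraries, with 4.00 to 5.85. Cdk2 and Cdk4 were given no peak, although a region of 5.13 normalized tags given to Tspan31 lay 3.05 kb from Cdk4.

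Of the CIP/KIP inhibitors, which block CDKs, Cdkn1b (p27) had a region across its start, at chr6:134920277-134920495. The values were 4.40, 6.77 and 5.25 (5.47 ± 1.20, SD, n = 3), among the weaker ones. Cdkn1a (p21) had 1 region in libraries 1 and 2, 17.3 kb outside the gene, with 4.68 and 5.54, and none in library 3. Cdkn1c (p57) was given no peak.

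Rb1, the retinoblastoma gene, had the strongest region inside any of the 36 genes, 18.2 kb from a gene end at chr14:73307680-73307885. It held 19.3, 16.6 and 18.4 normalized tags (18.1 ± 1.37, SD, n = 3), and the counting intervals of the 3 libraries overlapped. The input was high there too, with 5.0, 5.9 and 6.0 tags, which gave 12.7-fold, 9.12-fold and 10.1-fold enrichment. Rb1 had 6 further regions, 3 in a pair of libraries with 4.06 to 7.16 and 3 in a single library with 4.06 to 5.23. Its relatives Rbl1 (p107) and Rbl2 (p130) had peaks within 1 kb of a gene end in every library, but these did not overlap across all 3. The strongest peaks were 4.95, 4.00 and 4.06 for Rbl1 and 4.95, 7.69 and 5.25 for Rbl2.

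E2f1, an activator of S-phase genes, had a region 177 bp beyond its span and 643 bp before the listed start site, at chr2:154569973-154570165. It held 5.78, 5.54 and 4.54 normalized tags (5.29 ± 0.658, SD, n = 3) and was the weakest of the 20. E2f3 had a region inside the gene, 9.36 kb from an end, at chr13:29976615-29976787, with 6.61, 4.31 and 6.69 (5.87 ± 1.35, SD, n = 3). Its start carried a stronger region in libraries 1 and 2 only, with 7.16 and 9.23. E2f2 had a region in libraries 1 and 2, 8.57 kb outside the gene, with 6.06 and 4.62.

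Of the 6 mitotic and proliferation genes, Plk1, Cdc20 and Bub1 had start-site regions. Plk1, a kinase of the mitotic entry and the spindle, had the highest mean at any gene start, by less than its spread above Mcm3 and Top2a, centred 46 bp before the start at chr7:122159302-122159476. It held 15.7, 20.6 and 17.4 normalized tags (17.9 ± 2.49, SD, n = 3) and was 51.7-fold, 67.9-fold and 57.4-fold over the input. Cdc20, an activator of the anaphase-promoting complex, held 4.68, 10.2 and 4.78 at chr4:118437326-118437499 (6.55 ± 3.16, SD, n = 3). Library 2 was highest, with counting intervals that overlapped those of the others, and with p = 0.0164 and an adjusted p of 0.769 in the exact multinomial test.

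Bub1, a kinase of the spindle checkpoint, had an even but weak region at chr2:127831898-127832117, with 5.23, 5.23 and 5.73 (5.40 ± 0.289, SD, n = 3). Aurkb, the kinase of the chromosomal passenger complex, had a region at a gene end in libraries 2 and 3, with 5.85 and 4.54, and a stronger peak 4.43 kb outside the gene in library 2 only, with 7.08. Aurka, its spindle-pole relative, and Mki67, the source of the Ki-67 antigen used to count dividing cells, were given no peak.

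**Figure D2:**
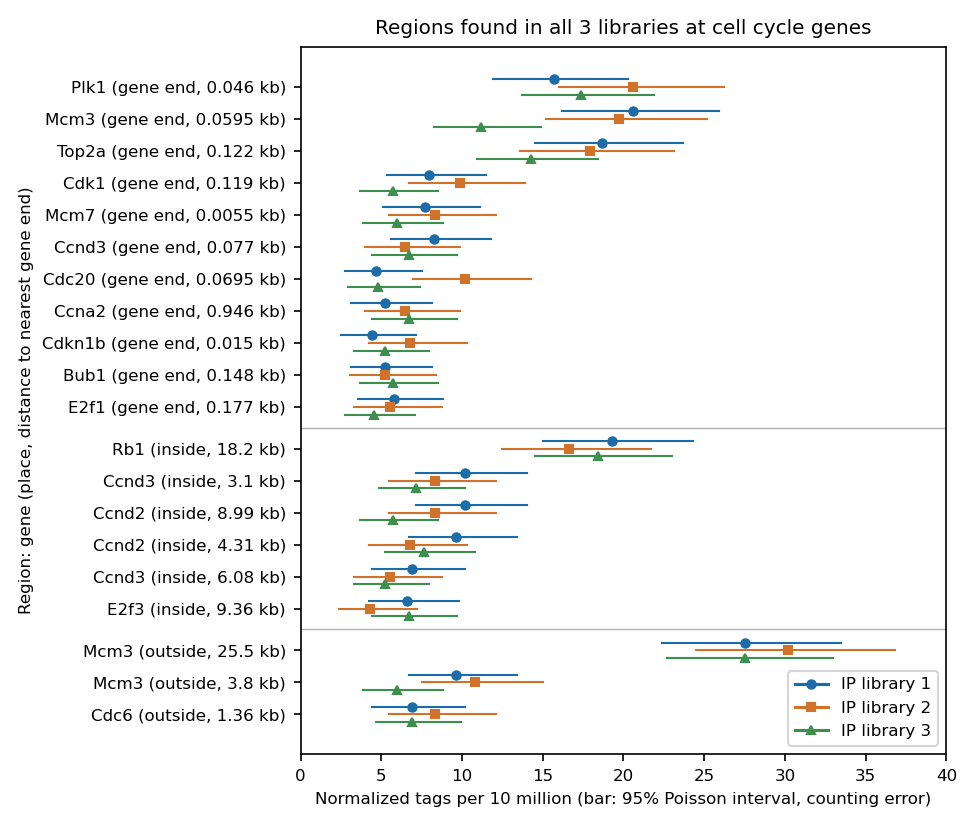
The 20 reproducible regions of the 36 genes, with normalized tags per 10000000 (horizontal axis) in each IP library and bars for the exact Poisson 95% interval of the tags, which covers counting error only. Regions are grouped as at a gene end, inside or outside the gene, and the bars of a region overlap except at the Mcm3 start, where that of IP library 3 (8.25 to 14.9) lies below those of the others.

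Differences between libraries were tested at all reproducible regions with an exact multinomial test, in which the expected shares were those of the tags summed over all regions. With Benjamini-Hochberg adjustment, 0 of the members' 20 regions and 0 of 9334 in all (0%) differed at an adjusted p under 0.05, and 2 and 498 had an unadjusted p under 0.05. At the members' 20 regions a difference between libraries was not detectable at this depth, which does not show that the libraries were equal. Only regions with a peak in all 3 libraries were tested, so places where a library had no peak did not enter. IP library 3 gave the lowest value in 9 of the 20 regions, library 1 in 7 and library 2 in 4. Ties counted for library 1, which shared the lowest value with library 3 at the strongest Mcm3 region and with library 2 at Bub1. The medians over these regions were 8.12, 8.31 and 6.69, near the 7.98, 8.00 and 6.69 over all assigned regions.

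Where the start site was known, the members' peaks were placed by their distance from it. RefSeq gave a start site for 28 of the 36 genes, all but Ccnd1, Ccnd2, Ccne2, Ccna2, Cdkn1c, Rb1, Mcm4 and Aurkb. These 28 genes had 86 peaks over the 3 libraries, 47 within 1 kb of a start and 41 within 0.3 kb. Of their 16 reproducible regions, 9 were centred within 300 bp of a start. No matching shares over the peaks and regions of all genes are given, so these counts only describe the members. For genes with a reproducible region within 1 kb of a start there is such a share, 10 of the 36 against 7.14% of all protein-coding genes.

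**Figure D3:**
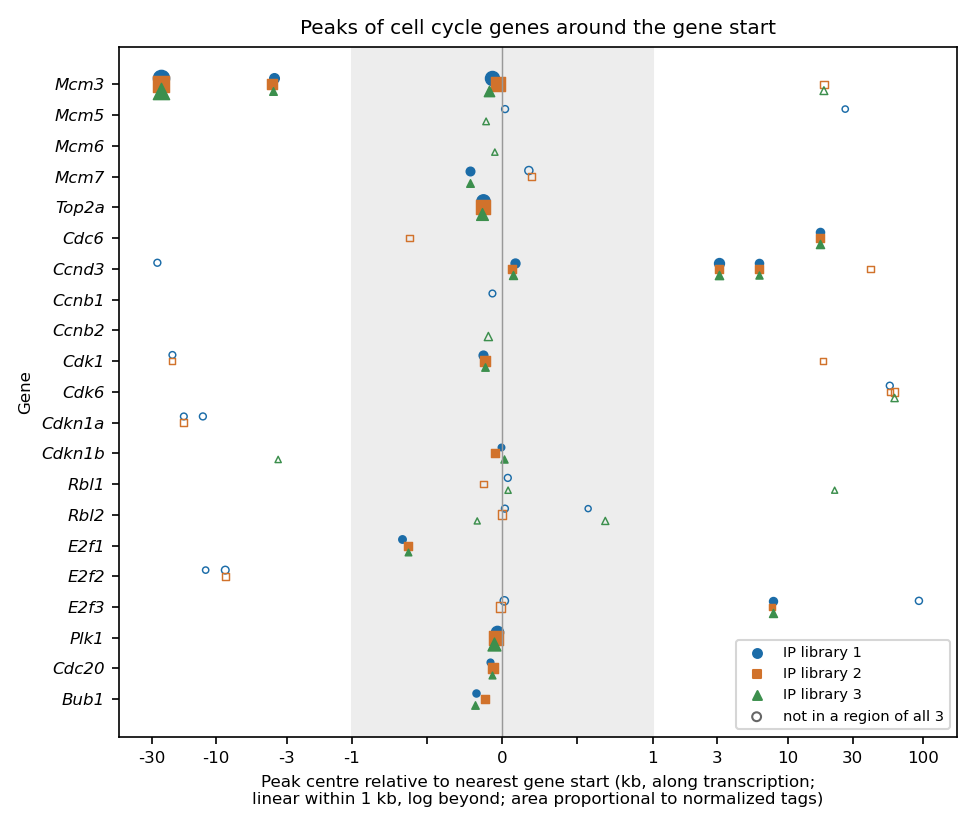
Every peak of the genes with a known start, by the distance of its centre from the nearest start along the direction of transcription in kb (linear within 1 kb, logarithmic beyond), with area proportional to normalized tags and filled marks for peaks in a region of all 3 libraries. Of 86 peaks, 47 lie in the shaded 1 kb on either side of the start, and the upstream Mcm3 peaks are the largest marks. The matching share over the peaks of all genes is not given.

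The start-site windows of RefSeq, from 250 bases before to 50 after a start, were searched on both strands for 4 kinds of word. These were the CCAAT box, SOX words (CATTGT or CTTTGT), the CHR word (TTTGAA) and E2F words. The E2F words were TTCCCGC together with TTCGCGC, and also TTGGCGC as well as TTGCCGC. A reversed CCAAT box can share letters with the E2F word TTGGCGC, and such a stretch counts for both. CCAAT boxes were present in 8 of the 9 member windows that a reproducible region touched, and in 22 of all 33 member windows (66.7%). The share was 38.5% of 21045 windows of all protein-coding genes, and 46.0% of the 1591 among them that a reproducible region touched. At least 2 boxes stood in 7 of the 9 windows, against 12.9% of all windows and 20.6% of those touched by a region.

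In the 8 windows with boxes, the box nearest to the centre of the region was 10.5 to 152.5 bp away, with a median of 26.25 bp. Of their 23 boxes, 16 lay wholly inside the region. The regions were 163 to 220 bp long, which is long relative to these windows, and no such distances were taken for other genes. Whether the regions were centred on the boxes was not tested. None of the 3 boxes of Mcm7 lay inside its region, and Ccnd3 was the window without a box. SOX words stood in 2 of the 9 windows, Bub1 and Ccnd3, against 25.2% of all windows and 30.1% of those touched by a region. The CHR word was found in 4 of the 9 (Cdc20, Cdk1, Plk1 and Top2a), against 15.6% of all windows and 14.0% of those touched by a region. E2F words were found in 3 of the 9 (Cdk1, Mcm3 and Mcm7), against 12.2% and 22.6%. The further lists of 100 cell cycle genes, described below, had 21 windows touched by a reproducible region. CCAAT boxes stood in 13 of these (61.9%), at least 2 boxes in 6 (28.6%) and SOX words in 5 (23.8%). The CHR word was in 2 (9.52%) and E2F words were in 9 (42.9%).

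The member windows that no reproducible region touched also held these words, with CCAAT boxes in 14 of 24 (58.3%), CHR words in 7 (29.2%) and E2F words in 10 (41.7%). Over the 19454 untouched windows of all protein-coding genes the shares were 37.9%, 15.7% and 11.4%. Mki67, for example, had 3 CCAAT boxes and 2 CHR words in its window and no peak in any library. The median GC content was 57.7% in the 9 windows, 63.2% in the 24 and 56.7% in all windows.

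A further 6 lists of cell cycle genes, 100 genes found in the RefSeq table, were described in the same way. Together 32 of the 100 had a reproducible region (22.5% of all genes), and 25 had one at a gene end (8.16% of all genes). With only peaks of at least 8-fold over the input, 17 of the 100 had a region against 15.0% of all genes, a share near that background. For genes of the spindle, kinetochore and checkpoint the counts were 9 of 22 and 8. The strongest there were Nuf2, a kinetochore subunit, with 27.3 ± 3.98 normalized tags at 29.8 kb outside the gene, and Mad1l1, of the spindle checkpoint, with 17.4 ± 3.60 at a gene end (SD, n = 3). Kif11, a spindle motor, followed with 12.9 ± 0.436 at 12.8 kb outside the gene, and Tpx2, an activator of the Aurora A kinase, with 11.9 ± 2.88 at a gene end.

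Origin licensing and helicase genes had a region in 7 of 18, led by Mcm9 (21.2 ± 4.74 normalized tags, 32.9 kb outside the gene), Cdc45 (12.3 ± 0.751), Gins1 (7.90 ± 2.51) and Orc6 (6.19 ± 1.58). Polymerase, clamp loader and RPA genes had one in 5 of 20, among them Prim2 (7.41 ± 1.08), Rfc5 (6.06 ± 1.25), Rpa1 (5.90 ± 1.57) and Rfc3 (5.67 ± 0.959). In deoxynucleotide synthesis the count was 3 of 6, all at gene ends, among them Rrm1 (8.20 ± 0.935) and Rrm2 (6.42 ± 1.30). Other E2F and MuvB factors had a region in 4 of 15. These were Lin52 (23.9 ± 1.87, 0.91 kb outside the gene), Rbbp4 (11.9 ± 0.896), Lin9 (9.53 ± 1.43) and Lin54 (9.33 ± 2.85, 12.6 kb outside the gene). Other cyclins, CDKs, CDC25 phosphatases and inhibitors had one in 4 of 19, with Ccng1 (8.08 ± 2.39), Cdc25a (7.65 ± 1.33), Cdc25c (7.12 ± 1.98) and Ccng2 (5.79 ± 0.947). All these values are means over 3 libraries with their SD. For the polymerase, E2F and MuvB, and other cyclin lists, the share with a region anywhere was near the 22.5% of all protein-coding genes. It was 38.9% for origin licensing and 50.0% for deoxynucleotide synthesis, lists of 18 and 6 genes.

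**Figure D4:**
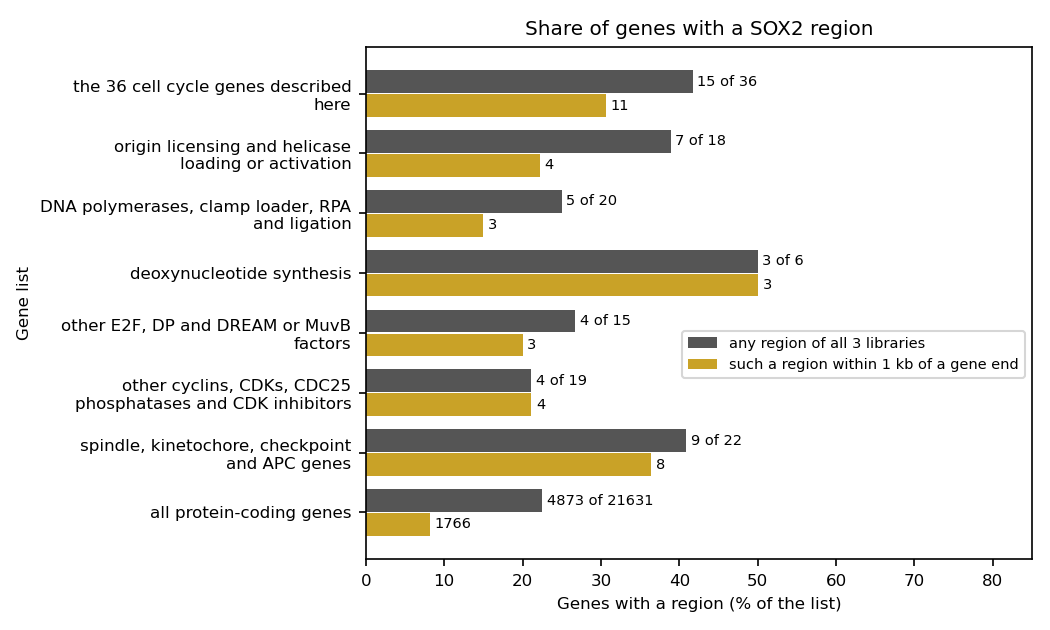
Share of genes with a reproducible region anywhere (dark bars) and within 1 kb of a gene end (yellow bars), in percent of each list on an axis from 0, with counts beside the bars. The 36 genes stand at 41.7% and 30.6%, and all protein-coding genes at 22.5% and 8.16%.

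Some reproducible regions lay within 50 kb of a member but nearer to another gene. The strongest was given to Necab3 and lay 15.7 kb from E2f1, with 19.3, 22.2 and 17.2 normalized tags (19.6 ± 2.51, SD, n = 3), above the region of E2f1 itself. A region of 12.4 ± 3.00 given to Gpr19 lay 32.4 kb from Cdkn1b, and 1 of 11.4 given to Id3 lay 31.6 kb from E2f2. Counting a region for every protein-coding gene within 50 kb gave 26 of the 36 genes one, against 46.6% of all genes.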

How the data were processed

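SOX2 ChIP-seq peak tables of 3 IP libraries were used. The input enters through their columns and is not analysed here on its own. Bowtie 1.0.0, HOMER 4.7 and the mm10 build come from the submitters' processing notes. Per the file headers, the authors ran HOMER findPeaks (factor style) on each IP library separately against the input. A peak had to reach 4-fold over the input, 4-fold over the 10 kb around it, a p-value of 0.0001 and an FDR of 0.001. The strength used is the authors' normalized tag signal. The deposited fold is a ratio of IP tags to input tags, where less than 0.5 input tags were set to 0.5. Whole tag counts were deposited for IP library 2. For all 3 libraries, however, the tags used here were computed from normalized values and library totals and rounded to whole numbers. The deposited peak score, whose lowest values of 14, 13 and 16 equal the tag thresholds in the headers, only ranked peaks for an alternative. The headers also give a limit of 1 tag per bp in libraries 1 and 2 and of 2 in library 3. The authors' focus ratio is a fraction and, like the deposited p-value, entered no result.

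Overlapping peaks were merged in chains, and the strongest peak of each library gives a region its value. Regions went to the nearest gene span in RefSeq (GRCm38.p6), which gives no exons here, and ties between overlapping genes to the nearer gene end. Members and lists were chosen with earlier results of these data known. Every member is accounted for, and of each further list at most the 4 strongest genes are named, except 1 that is not reported here. Of 20 genes listed as other cyclins, CDKs and inhibitors, 19 were found. Exact Poisson intervals cover counting error only. The exact multinomial test was tested on simulated data. The computing tools were Python 3.11.15 with numpy 2.4.6, pandas 2.3.3 and scipy 1.17.1, and matplotlib 3.10.9 for plots.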

Additional observations from a re-analysis of the deposited data

How the results depend on the processing

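None of the 15 members with a reproducible region lost it in any alternative tried except the pair that keeps only stronger peaks. With only peaks of at least 8-fold over the input, 9 of the 36 genes and 17 of the 100 further genes had a region (15.0% of all genes), 6 of the 36 had one at a gene end (4.49%), and 14 had a peak in IP library 3 (22.9%). Bub1, Cdc6, Cdkn1b, E2f1, Mcm7 and Top2a were the members without one. With only the stronger 0.5 of peaks, 9 of the 36 and 21 of the 100 had a region (15.2% of all genes) and 6 of the 36 at a gene end (4.58%), the median of the members' strongest regions was 8.56 normalized tags instead of 7.37, and 12 and 15 genes had a peak in libraries 1 and 3 (22.1% and 20.4%). Bub1, Ccna2, Cdc20, Cdkn1b, E2f1 and E2f3 were then without a region. Regions of at least 2 libraries gave 22 of the 36 genes and 49 of the 100 (31.15% of all genes), with a median of 6.44. Counting every gene within 50 kb gave 26 and 59 (46.6%), with a median of 8.62. With expected shares from the library totals, 1 of 9334 regions, and no member, differed between libraries. Leaving out 1 library gave 17 to 19 of the 36 genes and 35 to 41 of the 100 (24.95% to 26.43% of all genes), 12 to 14 at gene ends (9.39% to 10.4%) and a median of 6.74 to 7.59. At gene ends the count was 10 within 0.5 kb (7.04%), 12 within 2 kb (9.52%) and 10 at starts only (7.14%). For the strongest regions of single members, 9 of 153 alternative values moved by at least the SD of the main result. When every gene within 50 kb counted, E2f1 moved to 19.6, Cdkn1b to 12.4 and Cdc6 to 11.1. Mcm7 then moved to 9.75, Bub1 to 8.69 and Ccna2 to 8.17. That of Mcm3 moved to 17.2 with a limit of 5 kb. E2f3 moved to 8.195 with regions of at least 2 libraries, and also without IP library 3. No paired analysis was possible because there was a single input, against which the peaks of all 3 IP libraries were called. Weak members stand near the weakest peaks in the files, so a missing peak does not show absence.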
